A study of Homo sapiens with 6 samples.

Results

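DNA repair and Fanconi pathway genes were examined in HCC827 cells, an established human lung adenocarcinoma line with an activating deletion in EGFR, after blockade of that receptor's kinase with erlotinib. The 57 members were taken by gene symbol from a list of homologous recombination, Fanconi, mismatch, excision, end joining and damage sensing genes. All 57 were found among the 28395 genes of the deposited table, and all 57 passed the minimum mean signal of 10 that left 14215 genes for testing. Cells were exposed for 24 h to the vehicle DMSO or to erlotinib at a dose of 1 μM, and polyadenylated RNA was sequenced in 3 libraries per condition. Both groups carry the same EGFR deletion and come from a single cell line, and nothing in the labels says whether the 3 libraries of a group came from separate cultures, so the p-values measure only the spread between these libraries. Between 20760204 and 24641819 reads were counted on genes per library, and each member held between 17 and 8949 reads in a library. Values are given as signal, the reads of a gene divided by the size factor of its library, and fold changes are on the scale of log2(signal + 1), as erlotinib minus DMSO, with limma and Benjamini-Hochberg adjustment over all tested genes.

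Cells meet different kinds of DNA damage with different repair routes. Homologous recombination copies an intact sister strand and is used mainly in S and G2 phase, whereas end joining rejoins broken ends directly and can act throughout the cell cycle. Fanconi proteins open crosslinks between the strands at stalled replication forks, mismatch repair corrects errors left by the polymerase, and the excision routes replace damaged bases or bulky lesions from the intact strand. The transcription of many genes used at replication forks is tied to the cell cycle through E2F factors.

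With erlotinib, most of the 57 repair genes were lower, and among these members recombination and Fanconi genes had the lowest class medians. At an adjusted p under 0.05, 42 of the 57 members fell, 73.7% of them, beside 35.4% of all tested genes. Another 5 rose, 8.77% of them, beside 35.3% of all tested genes. The other 10 passed in neither direction, beside a background in which 70.7% of tested genes passed in one or the other. The median log2 fold change of the 57 was -1.06, beside 0.02 for all tested genes. Scaling each library to its total count gave 39 lower and 8 higher members, a median of -0.88, and 3955 lower and 6156 higher genes among all tested, whose median was then 0.19. A fall of at least 1 log2 unit was found in 29 members, beside 10.8% of all tested genes, and a rise of that size in 0, beside 17%. The 3 erlotinib libraries lay entirely below the 3 DMSO libraries for 42 members and entirely above them for 6, beside 36.9% and 36.7% of all tested genes. Signal summed over the members was 76265, 82735 and 74898 in the DMSO libraries and 40673, 40932 and 41123 in the erlotinib libraries. In these bulk samples, fewer cells in a replicating state and less RNA per cell cannot be told apart. DMSO library 2 was the highest of its group for 37 members, 64.9% of them, beside 41.7% of all tested genes. Without that library, 43 members were lower and 5 were higher, beside 5096 and 5094 of all 14215 tested genes.

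**Figure D1:**
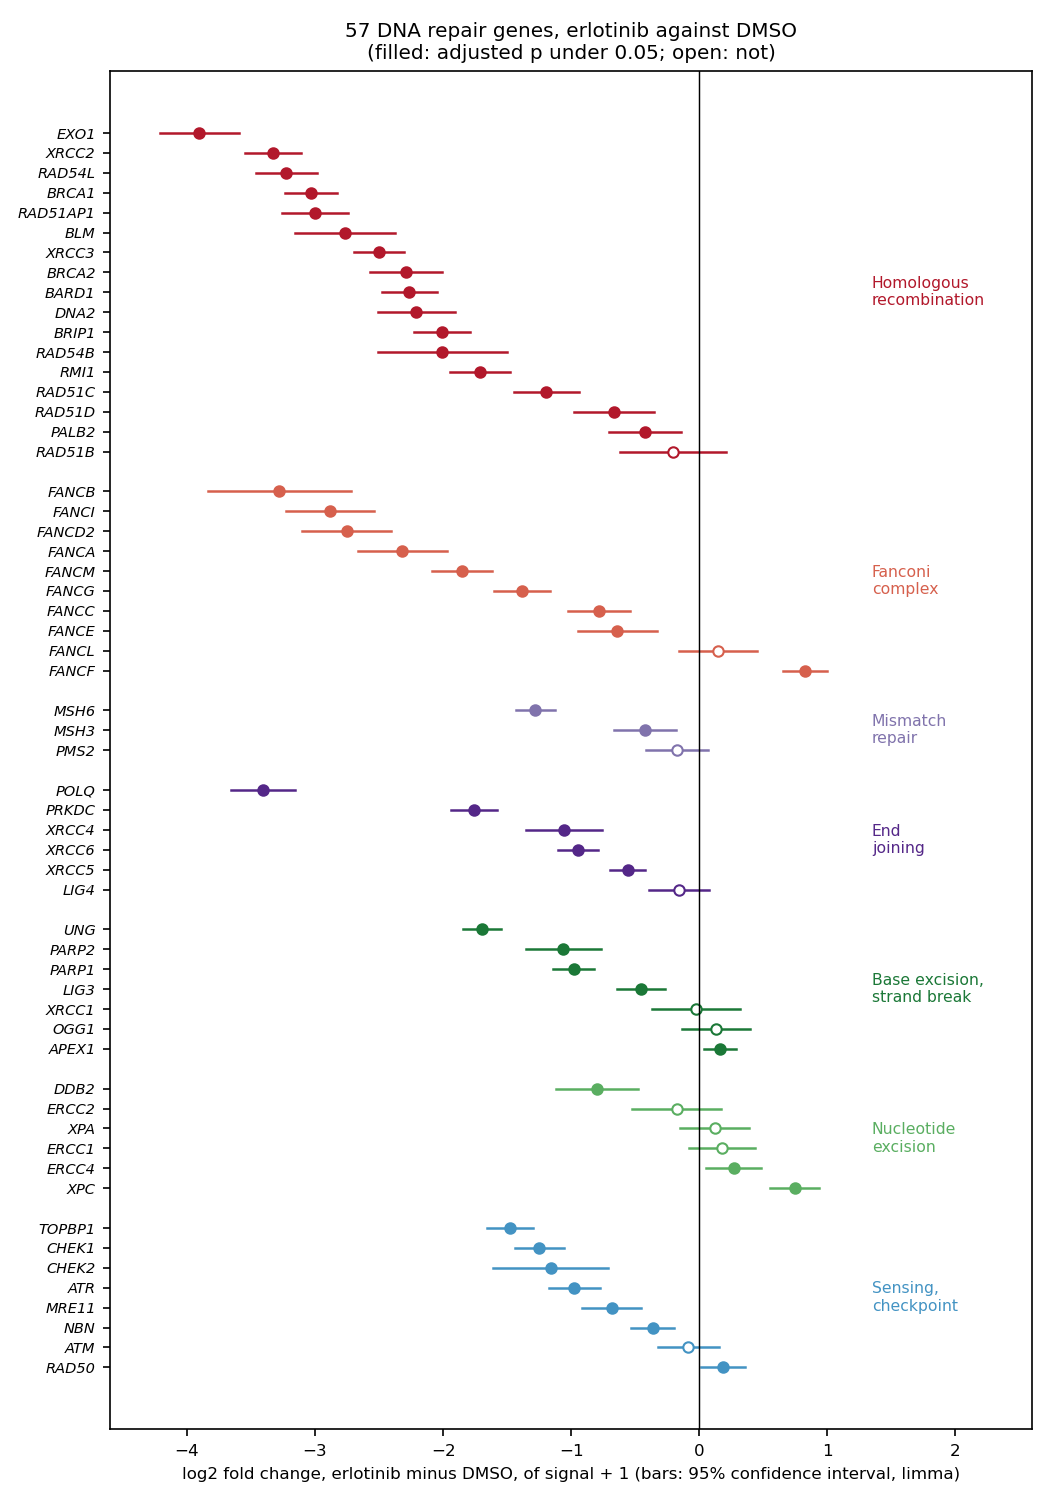
Log2 fold change of each of the 57 repair genes (x axis, erlotinib minus DMSO, signal + 1), ordered by class on the y axis, with points for the limma estimate and bars for its 95% confidence interval. Filled points pass an adjusted p of 0.05. Values reach down to -3.90 for the recombination gene EXO1 and -3.40 for the end joining gene POLQ, and FANCF and XPC lie furthest above 0, at 0.83 and 0.75.

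The counts of members that fell or rose are given by class, to be read against 35.4% lower and 35.3% higher among all tested genes. Among 17 homologous recombination genes, 16 fell and 0 rose, with a median of -2.26. Among 10 Fanconi complex genes, 8 were lower and 1 was higher, with a median of -1.62. The 6 end joining genes had 5 lower and 0 higher (median -1.001), and the 8 damage sensing and checkpoint genes had 6 lower and 1 higher (median -0.83). Base excision and strand break repair had 4 of 7 members lower and 1 higher (median -0.46), and mismatch repair 2 of 3 lower and 0 higher (median -0.42). Nucleotide excision repair had 1 of 6 members lower and 2 higher, with a median of 0.15, so that its share of higher genes was near that background. Scaled to the total count, 4 nucleotide excision members were higher and 1 mismatch repair member was lower. Under that scaling, 6156 of all 14215 tested genes were higher and 3955 were lower. Recombination and Fanconi genes together had 20 of 27 members lower by at least 1 log2 unit, and the other classes 9 of 30, beside 10.8% of all tested genes at that size. The difference between classes was not tested, since genes are not replicates of a condition.

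**Figure D2:**
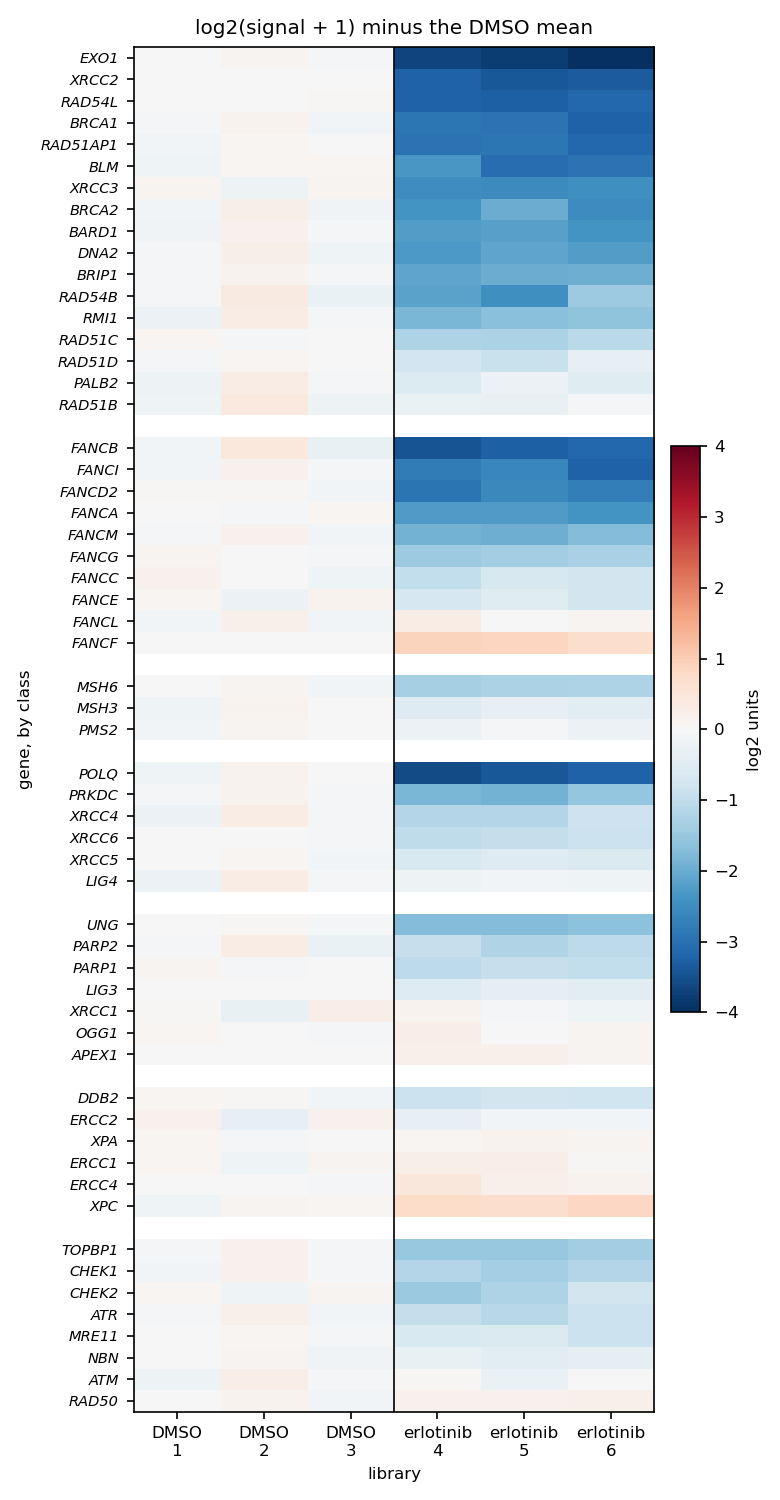
Heat map of log2(signal + 1) minus the DMSO mean of each gene (color, in log2 units) for the 57 repair genes (rows, in the same class order as the plot of fold changes) in the 3 DMSO and 3 erlotinib libraries (columns). The 3 erlotinib columns are alike, and the darkest blue rows are recombination, Fanconi and POLQ genes.

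Promoter sequence was compared among the members, since E2F factors drive many replication genes. RefSeq promoters (GRCh38.p14, 250 bases before to 50 after the start) were matched for 51 members, and RAD54B, DNA2, FANCI, XRCC5, PRKDC and NBN had no entry. The words searched were TTTCCCGC, TTTCGCGC, TTTGCCGC and TTTGGCGC, on both strands, which can overlap each other. At least 1 word was present in 11 of the 51 promoters (21.6%), beside 5.35% of the promoters of tested genes and 3.33% of all 27305 RefSeq promoters. By class, 3 of 3 mismatch repair, 3 of 9 Fanconi, 2 of 15 recombination, 1 of 6 nucleotide excision, 1 of 4 end joining, 1 of 7 sensing and 0 of 7 base excision promoters held a word. Among members lower by at least 1 log2 unit, 6 of 25 promoters held a word, and among the others 5 of 26. Among the promoters of all tested genes, 9.14% held a word where the gene was lower by at least 1 log2 unit and 3.61% where it was higher by that much. A match is a description of the letters, not of binding, and 8 of the 51 RefSeq starts, that of BRCA1 among them, were more than 100 bases from the start of the main annotated transcript. CCAAT, the word of NF-Y, was in 24 of 51 promoters (47.1%, beside 36.4% of tested genes), and TTTGAA or TTCGAA, the words of the cell cycle homology region, in 6 (11.8%, beside 11.2%). POLQ (-3.40), FANCB (-3.28) and RAD54L (-3.22) were among the members that fell the furthest, and their promoters held no E2F word. The windows below come only from members with a word. They cover members lower by at least 1 log2 unit, mismatch repair genes that fell by unequal amounts, and XPC, which rose. Each is 30 bases of GRCh38.p14, read 5′ to 3′ on the strand of the gene, with the words in capitals.
EXO1 (chr1:241848197-241848226, plus strand): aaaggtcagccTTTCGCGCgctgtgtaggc
XRCC2 (chr7:152676102-152676131, minus strand): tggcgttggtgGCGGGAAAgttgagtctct
FANCD2 (chr3:10026424-10026453, plus strand): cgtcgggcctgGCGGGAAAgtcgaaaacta
FANCA (chr16:89816801-89816830, minus strand): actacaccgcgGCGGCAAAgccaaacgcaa
TOPBP1 (chr3:133661930-133661959, minus strand): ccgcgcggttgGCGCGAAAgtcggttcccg
MSH6 (chr2:47783137-47783166, plus strand): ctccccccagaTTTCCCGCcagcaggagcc
MSH3 (chr5:80654536-80654565, plus strand): gcggtcaagTTTGGCGCGAAAttgtggccg
XPC (chr3:14178822-14178851, minus strand): cctgcgcccTTTCCCGCctctcgcgagaac
The first capital lies 4 bases after the start in EXO1, 21 after it in XRCC2 and 3 after it in MSH6. In FANCD2 (-2) and TOPBP1 (-7) the first capital lies before the start and the word reaches it, whereas the words of MSH3 (-107), FANCA (-172) and XPC (-241) lie wholly upstream. XRCC6, FANCC and PMS2 are the other members with a word. MSH3 holds 2 words that overlap on opposite strands.

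In homologous recombination, EXO1 (Entrez 9156, chr1:241847986-241889939, plus strand), the nuclease that extends resection of broken ends, fell the furthest of all 57 members. Its signal was 1122, 1226 and 1085 in the DMSO libraries and 88.6, 82.2 and 58.97 in the erlotinib libraries, far below without overlap. The mean fell from 1144 ± 72.9 to 76.6 ± 15.6 (SD, n = 3), 14.9-fold (log2 fold change -3.90, SE 0.15, adjusted p = 3.2e-15). XRCC2 (Entrez 7516, chr7:152644776-152676141, minus strand) encodes a recombination mediator that acts on resected single strands. Its signal was 1483, 1508 and 1473 in the DMSO libraries and 157, 139.6 and 146 in the erlotinib libraries, and both groups were tight. The mean fell from 1488 ± 18.3 to 147 ± 8.74, 10.1-fold (log2 fold change -3.33, SE 0.10, adjusted p = 2.3e-16). Both promoters carry an E2F word close to the start, as printed above.

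BRCA1 (Entrez 672, chr17:43044295-43170327, minus strand), which directs broken ends into recombination, had a signal of 3042, 3462 and 2913 in the DMSO libraries and 417, 401 and 334 in the erlotinib libraries. All 3 erlotinib libraries lay well below the DMSO libraries, 8.17-fold by the means (log2 fold change -3.03, SE 0.10, adjusted p = 2.5e-16). BRCA2 (Entrez 675, chr13:32315077-32400268, plus strand) loads the strand exchange filament onto the resected end. Its signal was 1084, 1369.8 and 1052 in the DMSO libraries and 221, 295 and 203 in the erlotinib libraries, again without overlap, 4.88-fold lower (log2 fold change -2.29, SE 0.13, adjusted p = 3.3e-12). BARD1, the partner of BRCA1 in its ubiquitin ligase, fell by a similar amount to BRCA2 (log2 fold change -2.26), whereas PALB2, which bridges BRCA1 and BRCA2, fell far less (log2 fold change -0.42, SE 0.13, adjusted p = 0.0081). PALB2 signal was 404, 579 and 443 in the DMSO libraries and 322, 395 and 337 in the erlotinib libraries, so that the lowest DMSO library was only just above the highest erlotinib library, and scaled to the total count the adjusted p of PALB2 was 0.12. BRIP1, a helicase that binds BRCA1, was at -2.01.

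The motor protein gene RAD54L (-3.22) and RAD51AP1, a cofactor of strand exchange (-3.00), fell about as far as BRCA1, and RAD54B, the relative of RAD54L, reached -2.01. The mediator genes related to XRCC2 were unequal. XRCC3 fell to -2.50 and RAD51C to -1.19, while RAD51D reached -0.66 and RAD51B was neither higher nor lower (-0.20, 95% confidence interval -0.62 to 0.21). RAD51B was the only recombination gene of the 17 whose groups overlapped. Signal of RAD51B was 112, 167 and 111 in the DMSO libraries and 107, 105 and 122 in the erlotinib libraries. The interval of RAD51B reaches neither the change of RAD51C nor those of XRCC2 and XRCC3. The dissolution genes BLM, a helicase, and RMI1, its accessory subunit, were at -2.77 and -1.71, and the resection nuclease DNA2 was at -2.21.

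In the Fanconi pathway, the core complex attaches ubiquitin to FANCD2 and FANCI, which are then clamped on DNA. FANCD2 (Entrez 2177, chr3:10026437-10101932, plus strand) had a signal of 421, 421 and 370.3 in the DMSO libraries and 52.6, 67.3 and 58.04 in the erlotinib libraries. The 2 groups were far apart, with means of 404 ± 29.1 and 59.3 ± 7.44, a 6.81-fold fall (log2 fold change -2.75, SE 0.17, adjusted p = 6.0e-12). FANCI (Entrez 55215, chr15:89243979-89317259, plus strand), its partner in the clamp, had 534, 657 and 562 in the DMSO libraries and 82.1, 95.04 and 60.8 in the erlotinib libraries. The fall of FANCI was close to that of FANCD2 (log2 fold change -2.88, SE 0.17, adjusted p = 2.7e-12). The core member FANCB (Entrez 2187, chrX:14689524-14873069, minus strand) fell the furthest of the Fanconi genes. Signal of FANCB was 166, 239.6 and 147 in the DMSO libraries and 15.7, 17.8 and 19.7 in the erlotinib libraries, 10.4-fold lower by the means (log2 fold change -3.28, SE 0.27, adjusted p = 6.6e-10), and with 17 to 21 reads in the erlotinib libraries it was the least sampled member.

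The other core genes did not move as a unit. FANCA, which encodes a core subunit, fell the furthest of the core genes after FANCB (-2.32). FANCM, the translocase that anchors the core on DNA, came next at -1.85. FANCG (-1.38), FANCC (-0.78) and FANCE (-0.64), further subunits of the core, fell less. FANCL, which encodes the ubiquitin ligase subunit itself, was neither higher nor lower (0.15, 95% confidence interval -0.15 to 0.45), with overlapping groups at 214, 268 and 214 in the DMSO libraries and 285, 234 and 252 in the erlotinib libraries. FANCF (Entrez 2188, chr11:22622533-22625823, minus strand), an adaptor within the core, rose. Signal of FANCF was 884, 868 and 849 in the DMSO libraries and 1615, 1584 and 1420.0 in the erlotinib libraries, every erlotinib library above every DMSO library. The mean rose from 867 ± 17.5 to 1539.6 ± 105, 1.78-fold (log2 fold change 0.83, SE 0.08, adjusted p = 1.6e-08), the largest rise among the 57 members.

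Mismatch repair was represented by MSH6 and MSH3, which find errors, and by PMS2, which acts after them. MSH6 (Entrez 2956, chr2:47783145-47810101, plus strand), whose product recognizes single mismatches, had a signal of 5291, 5683 and 4824 in the DMSO libraries and 2090.2, 2191 and 2218 in the erlotinib libraries. The erlotinib libraries lay close together well below DMSO (log2 fold change -1.28, SE 0.07, adjusted p = 1.8e-12). MSH3 (Entrez 4437, chr5:80654652-80876815, plus strand), whose product recognizes larger loops, had 450.4, 561 and 515 in the DMSO libraries and 353, 402 and 381 in the erlotinib libraries. The MSH3 groups were separated by a narrow gap (log2 fold change -0.42, SE 0.12, adjusted p = 0.0028), and scaled to the total count the adjusted p was 0.074. PMS2, which nicks the new strand, was neither (-0.17, 95% confidence interval -0.41 to 0.07) and its groups overlapped. All 3 promoters hold an E2F word, and the 3 fold changes ran from -1.28 to -0.17. A part of the word in these changes was not tested.

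Base excision and strand break repair split within the route. UNG (Entrez 7374, chr12:109097597-109110992, plus strand), the glycosylase that removes uracil from DNA, had a signal of 3706, 3861 and 3662 in the DMSO libraries and 1132, 1134 and 1201 in the erlotinib libraries, the largest fall of the class (log2 fold change -1.69, SE 0.07, adjusted p = 1.5e-14). OGG1, the glycosylase for oxidized guanine, was neither (0.13, 95% confidence interval -0.13 to 0.39). APEX1 (Entrez 328, chr14:20455226-20457767, plus strand), the nuclease that cuts the abasic site left by both, had 7292, 7162 and 7235 in the DMSO libraries and 8246, 8240.5 and 7844 in the erlotinib libraries. The APEX1 groups did not overlap, although the difference was small (log2 fold change 0.17, SE 0.06, adjusted p = 0.020), and without erlotinib library 4 or 5 its adjusted p was 0.089 or 0.092. PARP1 (Entrez 142, chr1:226360691-226408093, minus strand), the main sensor of strand breaks, had 2853, 2531 and 2646 in the DMSO libraries and 1297, 1424 and 1343 in the erlotinib libraries, with no overlap (log2 fold change -0.98, SE 0.08, adjusted p = 2.7e-10). PARP2, its lesser relative, had 466, 589 and 404 in the DMSO libraries and 255, 207 and 230.3 in the erlotinib libraries, the groups well apart (log2 fold change -1.06, SE 0.14, adjusted p = 1.0e-06). The ligase gene LIG3 was lower (-0.46), and its scaffold XRCC1 was neither (-0.02, 95% confidence interval -0.37 to 0.32).

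In nucleotide excision repair, called members went in both directions. XPC (Entrez 7508, chr3:14145147-14178601, minus strand), which finds bulky lesions across the genome, rose. Its signal was 685, 846 and 814 in the DMSO libraries and 1297, 1257 and 1370.4 in the erlotinib libraries, every erlotinib library above the DMSO range. The mean rose from 782 ± 85.2 to 1308 ± 57.4, 1.67-fold (log2 fold change 0.75, SE 0.09, adjusted p = 3.6e-07). DDB2, which marks ultraviolet lesions for XPC, went the other way. DDB2 signal was 246, 241 and 214 in the DMSO libraries and 127, 139.6 and 135 in the erlotinib libraries, a clear separation (log2 fold change -0.80, SE 0.15, adjusted p = 9.8e-05). ERCC4, the incision nuclease on the 5′ side, had 535, 535 and 515 in the DMSO libraries and 723, 609 and 588 in the erlotinib libraries. The lowest erlotinib library of ERCC4 was above all DMSO libraries (log2 fold change 0.27, SE 0.10, adjusted p = 0.026), but its adjusted p was 0.19 without erlotinib library 4 and 0.067 without DMSO library 3. The lesion verifier XPA (0.12), the partner of ERCC4, ERCC1 (0.18), and the helicase ERCC2 (-0.18) were neither. Scaled to the total count, XPA, ERCC1 and the glycosylase gene OGG1 were called higher, and without DMSO library 2 ERCC2 was called lower, at -0.35. The XPA libraries did not overlap, at 261, 237 and 252 in the DMSO libraries and 266, 278 and 271 in the erlotinib libraries, but its adjusted p was 0.41.

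In end joining, POLQ and PRKDC stood for different routes. POLQ (Entrez 10721, chr3:121431431-121545988, minus strand) encodes the polymerase of microhomology-mediated joining. Its signal was 1246, 1543 and 1411 in the DMSO libraries and 116, 132 and 146 in the erlotinib libraries, 10.7-fold lower by the means and without overlap (log2 fold change -3.40, SE 0.12, adjusted p = 1.3e-15). PRKDC (Entrez 5591, chr8:47773111-47960136, minus strand), the catalytic kinase of the classical route, had 6419.6, 7456 and 6350.1 in the DMSO libraries and 1885, 1809 and 2305 in the erlotinib libraries. The fall of PRKDC was clear but smaller than that of POLQ (log2 fold change -1.76, SE 0.09, adjusted p = 2.1e-13). The Ku subunit genes that first bind the ends, XRCC5 and XRCC6, were lower, at -0.56 and -0.95. In the ligation step, XRCC4 had 438, 631 and 503 in the DMSO libraries and 231, 229.7 and 290.2 in the erlotinib libraries, without overlap (log2 fold change -1.06, SE 0.14, adjusted p = 1.1e-06), while LIG4, the ligase it holds, was neither (-0.16, 95% confidence interval -0.39 to 0.07). Signal of LIG4 was 716, 1033 and 805 in the DMSO libraries and 725, 787 and 748 in the erlotinib libraries, all 3 erlotinib libraries within the DMSO range, and without DMSO library 1 it was called lower at -0.28.

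Among damage sensing and checkpoint genes, ATR was called lower and ATM was not, and the difference between these apical kinases was not tested. ATM (Entrez 472, chr11:108223067-108369102, plus strand), which responds to double-strand breaks, had 733, 1023 and 805 in the DMSO libraries and 867, 704 and 830.3 in the erlotinib libraries. The ATM groups overlapped (-0.08, 95% confidence interval -0.32 to 0.15, adjusted p = 0.52), and scaled to the total count the value of ATM was 0.095. ATR (Entrez 545, chr3:142449235-142578733, minus strand), which responds to exposed single strands at forks, had 1426, 1709 and 1379 in the DMSO libraries and 767, 699 and 824 in the erlotinib libraries, each erlotinib library far below the lowest DMSO library (log2 fold change -0.97, SE 0.10, adjusted p = 1.2e-08). CHEK1 (Entrez 1111, chr11:125625136-125681124, plus strand), the kinase downstream of ATR, had 1683, 2061 and 1714 in the DMSO libraries and 795, 699 and 797 in the erlotinib libraries. All 3 erlotinib libraries of CHEK1 were lower by a wide gap (log2 fold change -1.25, SE 0.09, adjusted p = 1.5e-10). TOPBP1, the activator of ATR, had 2198, 2592 and 2188 in the DMSO libraries and 809, 805 and 885 in the erlotinib libraries, the largest fall of the class (log2 fold change -1.48, SE 0.08, adjusted p = 2.6e-12). CHEK2, the kinase downstream of ATM, was at -1.16, from a mean signal of 153 ± 15.5 to 69.6 ± 19.2. The complex that senses ends and activates ATM split, with MRE11 (-0.68) and NBN (-0.36) lower, although scaled to the total count the adjusted p of NBN was 0.052. RAD50, the remaining part, had 1255, 1400.5 and 1185 in the DMSO libraries and 1435, 1443 and 1479.9 in the erlotinib libraries. The highest DMSO library of RAD50 was just below the lowest erlotinib library (log2 fold change 0.19, SE 0.08, adjusted p = 0.048), and leaving out any library other than DMSO library 2 gave an adjusted p between 0.096 and 0.19. Without the filter on low signal it was 0.054. RAD50 also shares 91.0% of its main transcript with another annotated transcript, so its value is uncertain.

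Per kilobase of the main transcript, the order of levels changed between conditions. APEX1 was the highest in both, going from 4976 to 5582 mean signal per kilobase, and XRCC5 was second in both (2312 to 1567). BRCA1 went from 443 to 54.2 and from rank 11 to 40 of 57, EXO1 from 332 to 22.2 and from rank 16 to 48, and POLQ from 159.9 to 15.00 and from rank 30 to 53. FANCF moved the other way, from 263 to 468 and from rank 22 to 6, as did XPC, from 214 to 358 and from rank 23 to 7. FANCB was the lowest with erlotinib (60.97 to 5.87). RAD51D, the lowest in DMSO, went from 32.7 to 20.9 and to rank 49. Its rank depends on the 9966 bases of its main transcript, since its mean DMSO signal, 326, was above that of FANCB, 184. These levels are unadjusted for reads that cross introns, which the aligner used does not split.

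**Figure D3:**
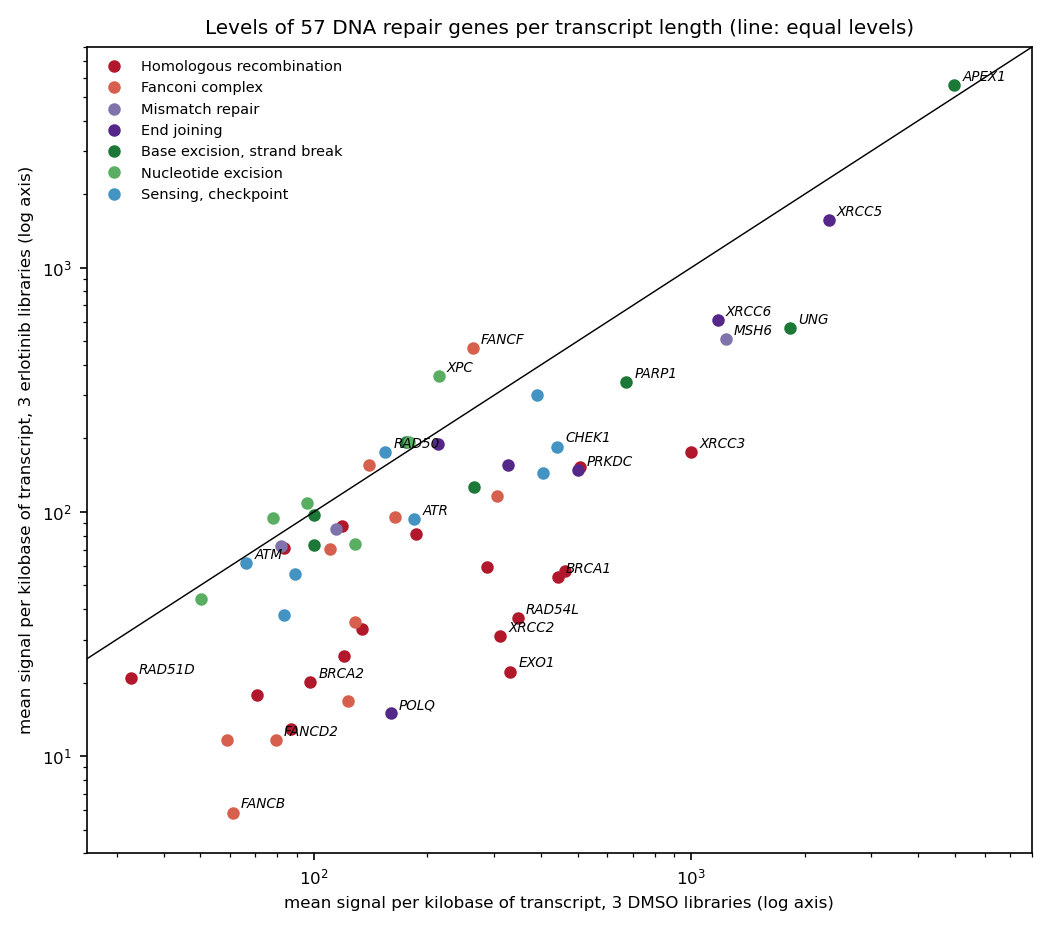
Mean signal per kilobase of transcript in the 3 DMSO libraries (x axis, log scale) against the 3 erlotinib libraries (y axis, log scale) for the 57 repair genes, colored by class, with a line of equal levels. APEX1 lies at the upper right just above the line, FANCF and XPC lie above it, and EXO1, POLQ, XRCC2 and FANCB lie furthest below.

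Other genes of the same routes, 120 listed from general knowledge, gave a comparison outside the members. Of these, 119 were in the table. Among the 114 tested, 73 fell and 17 rose, with a median of -0.61, beside 35.4% lower and 35.3% higher of all tested genes. The order of the routes was not that of the members, since mismatch repair (median -1.26) and sensing genes (-1.09) had lower medians here than recombination (-0.79) and Fanconi genes (-0.82). Further recombination genes had 19 of 26 lower and 3 higher (median -0.79), with HROB, a factor of the later steps of recombination, at -2.45 (452 ± 84.7 to 82.4 ± 17.8 signal) and ABRAXAS1, a scaffold of the BRCA1-A complex, at 0.92. Further Fanconi genes had 8 of 11 lower and 2 higher (median -0.82), including UBE2T, the ubiquitin conjugating enzyme that works with FANCL, at -2.46 (505 ± 80.1 to 91.8 ± 21.6 signal). Mismatch repair partners were lower in 7 of 7 (median -1.26), PCNA the furthest at -2.98 and LIG1 next at -1.53. PCNA is also counted among the S phase genes below. Base excision genes had 9 of 16 lower and 2 higher (median -0.43), between NEIL3 (-3.91) and NEIL1 (1.36), which are both glycosylases for oxidized bases. NEIL3 signal went from 445 ± 79.3 to 30.5 ± 12.6 and NEIL1 signal from 55.5 ± 3.10 to 145 ± 19.6.

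Further nucleotide excision genes had 9 of 16 lower and 4 higher (median -0.45), with RPA3, a subunit of the protein that coats single strands, at -1.17 and ERCC5, the incision nuclease on the 3′ side, at 0.87. The median of this wider list was thus below 0, where that of the 6 members was above it. Further end joining genes had 4 of 12 lower and 3 higher (median -0.11), near the share of lower genes among all tested, from RIF1, an effector that protects ends from resection (-1.32), to the gap-filling polymerase POLM (1.176). Further sensing genes had 12 of 15 lower and 0 higher (median -1.09). CLSPN, the adaptor through which ATR reaches CHEK1, was at -4.34 (1631 ± 61.9 to 79.4 ± 1.47 signal). The cell cycle phosphatase gene CDC25A, also in this list, was at -3.03. Translesion and direct reversal genes had 5 of 11 lower and 3 higher (median -0.24), with RAD18, the ligase that marks PCNA, at -1.91 and the polymerase POLI at 1.14.

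Cell cycle genes were also lower. All 20 listed S phase genes were lower (median -2.45), CDC6 the furthest at -4.19, and all 18 G2 and mitosis genes were lower (median -2.56), AURKB the furthest at -3.33. Summed signal of the S phase genes was 60842, 60720 and 59164 in DMSO and 11592, 11588 and 11465 in erlotinib libraries, with MCM7 the most abundant. That of the G2 and mitosis genes was 77346, 83551 and 76071 in DMSO and 13963, 13933 and 13413 in erlotinib libraries, with TOP2A the most abundant. Their part in the fall of the repair genes was not tested. Output genes of EGFR signaling were lower in 13 of 14 (median -2.26). Listed p53 targets were lower in 6 of 16 and higher in 6 (median 0.05), near the 35.4% and 35.3% of all tested genes, from AEN (-2.12) to BBC3 (2.66), while CDKN1A was at -0.01. Scaled to the total count, 2 p53 targets were lower, beside 3955 of all 14215 tested genes.

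**Figure D4:**
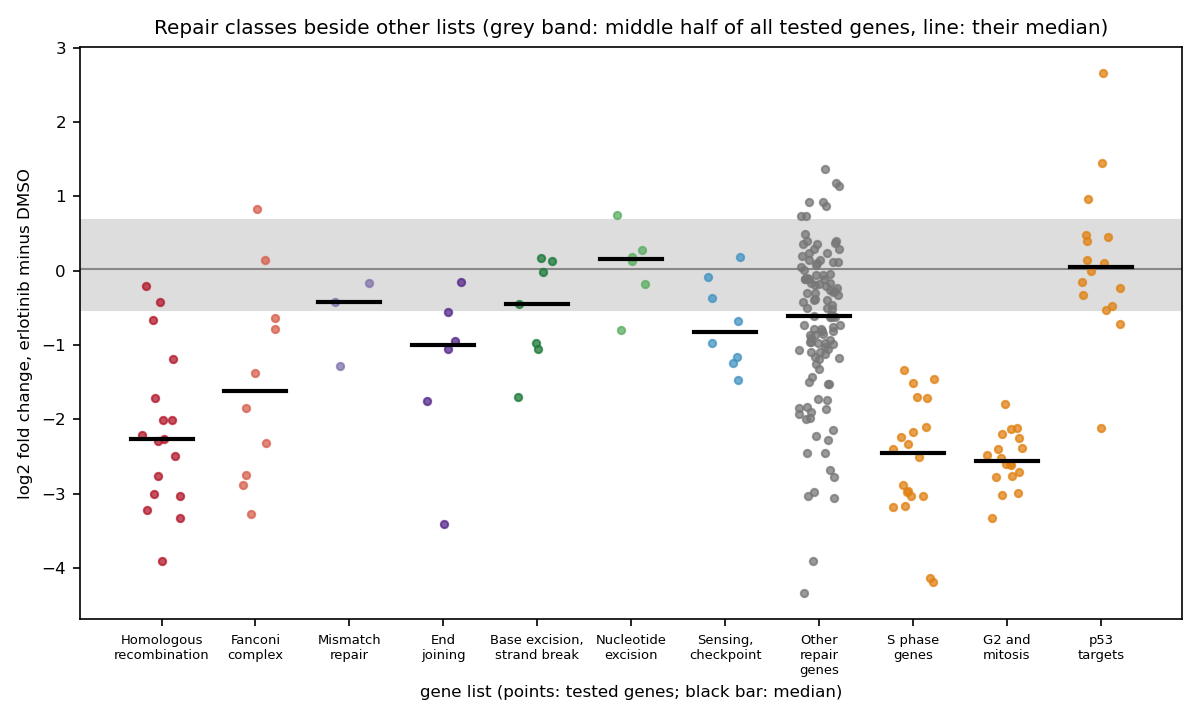
Log2 fold change (y axis, erlotinib minus DMSO) of each tested gene in the repair classes, the other repair genes and the cell cycle and p53 lists (x axis), with a black bar at each median. The grey band spans the quartiles of all tested genes, -0.53 to 0.68, and the medians of recombination, Fanconi, S phase and mitosis genes lie below it, with those of end joining, sensing and the other repair genes.

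Marker genes fitted the labelled epithelial line. Of 11 epithelial and lung markers, 10 were tested. Of these, 5 were lower and 3 higher, beside 35.4% lower and 35.3% higher among all tested genes. NKX2-1 (1.53), NAPSA (1.92) and MUC1 (2.82) were higher, while KRT7 (-0.63), KRT8 (-0.83), KRT18 (-1.25), KRT19 (-0.39) and EGFR (-0.81) were lower. KRT7, a keratin of lung epithelium, EPCAM and CDH1 were present in all libraries, as was the lung lineage factor NKX2-1, while the surfactant gene SFTPB had a signal of only 3.7 to 12.2. Of 8 leukocyte markers, 2 were tested and both were higher, CD74 at 2.52 and CD68 at 0.23, beside 35.3% of all tested genes. MS4A1 was listed at 0 in all libraries, and PTPRC and CD3E did not exceed 5.6 and 4.3. The summed leukocyte list was 2809, 2803 and 3176 in DMSO and 3300, 3584 and 3526 in erlotinib libraries, nearly all from CD68, which epithelial lines also express. Fibroblast and endothelial lists summed to 73.7, 75.2 and 109 and to 34.0, 15.8 and 24.6 in DMSO libraries, and to 260, 223 and 217 and to 58.1, 46.5 and 48.7 in erlotinib libraries. FAP and CLDN5 were listed at 0 in every library. A listed 0 need not mean that a gene's RNA was absent, since the broadly expressed repair genes MDC1, RAD17, GTF2H4 and FAN1, chosen after their values were seen, were also listed at 0 in all 6. COL1A1, the most abundant fibroblast marker, had a mean signal of 147 and was the only 1 of 8 tested, and of 6 endothelial markers 2 were tested and 1 was higher. Their part in the results was not tested.

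Several members share exons with other genes, and the strand that was counted is not stated in the sources used here, so their reads could be divided or lost. RAD50 shares 91.0% of its main transcript with another annotated transcript, RAD54B 65.6% with FSBP, ERCC1 47.2% with POLR1G and LIG3 44.8% with RFFL. PMS2 shares up to 32.6% with near-identical copies, PMS2CL among them, so that its value is uncertain. FANCA shares 21.2% with ZNF276, RAD54L 18.4% with LRRC41, FANCF 9.6% with GAS2 and XPC 16.2% with its antisense gene. BRCA1, BRCA2, EXO1, XRCC2, FANCD2 and POLQ shared none at the minimum of 300 aligned bases and 97% identity.

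Many repair genes start beside a gene on the opposite strand, and the members of such pairs did not always move together. Of the 57 members, 27 had such a neighbor starting within 1000 bases, and 16 pairs with a tested neighbor are described here. Both genes were lower in 7 of these 16, beside 35.4% of all tested genes and 73.7% of the 57 members lower singly. PRKDC and MCM4, a subunit of the replicative helicase, start 805 bases apart, and MCM4 fell further (-2.96, adjusted p = 4.4e-18). BRCA1 fell while NBR2, a noncoding gene that starts 187 bases away, rose (1.04, adjusted p = 3.3e-06). BARD1 likewise fell where SNHG31 rose (1.06, adjusted p = 0.012). XPC rose while LSM3, which encodes an RNA-binding subunit and starts 216 bases away, fell (-1.27, adjusted p = 4.1e-09). ATM was neither while NPAT, a regulator of histone genes, fell (-0.58, adjusted p = 1.8e-05), and FANCB fell while MOSPD2 was neither (-0.11, adjusted p = 0.40). These pairs were chosen after the values were seen.

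**Figure D5:**
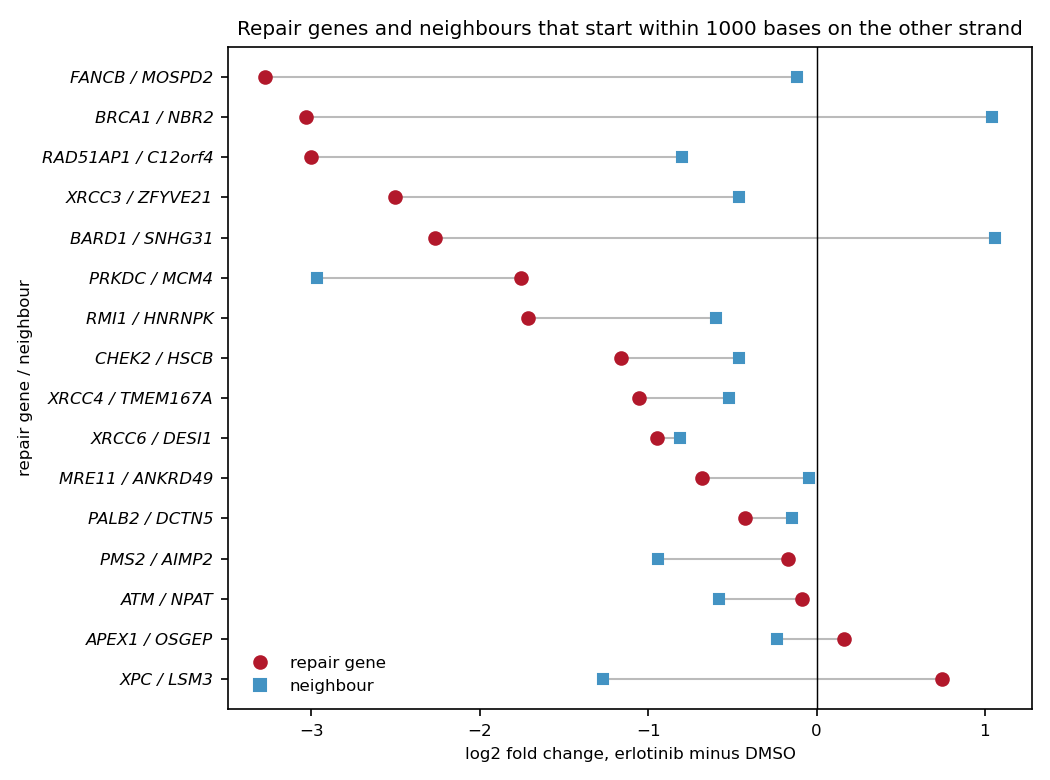
Log2 fold change (x axis, erlotinib minus DMSO) of each repair gene (red circles) and of the neighbor that starts within 1000 bases on the opposite strand (blue squares) in the 16 pairs described (y axis). BRCA1 and BARD1 lie left of 0 with their neighbors to the right, and XPC lies right of 0 with LSM3 to the left.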

How the data were processed

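Polyadenylated RNA of HCC827 cells was sequenced in 6 libraries, 3 with DMSO and 3 with erlotinib (1 μM, 24 h). Per the authors' methods and notes, paired reads were aligned on GRCh38 (Bowtie2 2.3.4), unique alignments were counted on genes (featureCounts 1.6.3) and DESeq2 1.18.1 was used. The values deposited by the authors are a signal, the reads of a gene over its library's size factor. Dividing by each library's step (size factors 0.882 to 1.08) gave whole reads for 100% of the values, within a tolerance of 0.05. The erlotinib columns carry numbers that match no sample label and were matched to their group only. Replicates differed by more than sampling noise (chi-square over degrees of freedom, 4.13 to 24.3).

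Genes that reached a mean signal of 10 were tested with limma 3.58.1 on log2(signal + 1), with a trend of variance on mean, two-sided tests and Benjamini-Hochberg adjustment over all 14215 genes at a threshold of 0.05. Alternatives were edgeR 4.0.16, DESeq2 1.42.0 and limma-voom on the recovered reads, total-count or TMM scaling, pseudocounts of 0.1 and 10, no filter or at least 10 reads in every library, an adjusted p under 0.01 and each library left out. No set test was used. A few genes are left unreported here. The members and all gene lists were chosen with earlier results of these data known. All 57 members are accounted for. Values by library were to be given for 10 fixed members and, per class, for the 2 largest falls and the 2 largest rises past the threshold, and the rest by fold change. In the other lists up to 2 genes in each direction could be named, and not all were. PALB2, RAD51B, FANCL, XPA, XRCC4 and LIG4 were also given by library after their values were seen. Positions and promoters came from RefSeq (GRCh38.p14) and transcripts from GENCODE release 44, aligned with minimap2 2.31-r1302. R 4.3.3, Python 3.11.15 and matplotlib 3.10.9 were used.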

Additional observations from a re-analysis of the deposited data

How the results depend on the processing

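Across 16 alternatives, 43 of the 57 members kept their direction and side of the threshold, and 14 did not under at least 1. The members lower numbered 39 to 43, beside 3955 to 5096 of the genes tested. The median log2 fold change of the 57 lay between -1.08 and -0.88. Scaling to the total count raised the median of all tested genes from 0.02 to 0.19, with 3955 lower and 6156 higher among all 14215. Under it 8 members were higher in place of 5, 1 mismatch repair gene was lower in place of 2, 2 base excision genes and 4 nucleotide excision genes were higher in place of 1 and 2, and 2 p53 targets were lower in place of 6. It also turned PMS2 (0.00732), XRCC1 (0.156), ERCC2 (0.00277), LIG4 (0.02003) and ATM (0.0951) to log2 fold changes above 0, all still without a call, left PALB2, MSH3 and NBN without a call at adjusted p of 0.121, 0.0744 and 0.0519 (limma), and made OGG1, XPA and ERCC1 higher. At an adjusted p under 0.01, 2 members were higher (FANCF and XPC), beside 4323 of all 14215 tested genes. These included 0 base excision genes, 1 nucleotide excision gene and 0 sensing genes. Without the filter, 0 sensing genes were higher, and 2 fibroblast and 2 endothelial markers, beside 5485 of 19595 tested genes. With at least 10 reads in every library, 1 leukocyte and 0 endothelial markers were higher, beside 4354 of 12859 tested genes. Leaving out 1 library at a time, 2 to 5 members were higher, 0 to 1 base excision genes, 1 to 2 nucleotide excision genes, 0 to 1 sensing genes and 1 to 2 leukocyte markers, and 1 to 2 nucleotide excision genes were lower. With 1 library left out, 4585 to 5094 of all 14215 tested genes were higher and 4702 to 5096 were lower. The lowest number of members higher, 2, came without erlotinib library 4. XRCC1 turned to 0.00881 with limma-voom and ranged from -0.172 to 0.108 as single libraries were left out, and ATM from -0.187 to 0.0535, neither with a call. The cause of these changes was not tested. No paired analysis was possible because the erlotinib columns carry no replicate number shared with the DMSO samples. FANCB, RAD54B and CHEK2, with few reads, had the widest intervals of the 57 (SE 0.27, 0.24 and 0.22). APEX1 and RAD50, at 0.17 and 0.19, were the smallest changes called among the 57.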
